A study of Mus musculus with 6 samples.

Results

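The genes described here are 36 synaptic and neuronal differentiation genes, out of 18194 genes measured in CAD, a catecholaminergic neuroblastoma cell line of the mouse. They were chosen by name, as genes of synaptic vesicles, transmitter release, the postsynaptic side, cell adhesion, axons and other neuronal functions. The choice was made with earlier results of these data known, so counts over the list describe it and do not test it. Many of them are reported targets of the repressor REST. Each was represented by its brightest probe set that maps to 1 gene. The cells had received by transfection the RIPmiR-124a-2 plasmid, which expresses miR-124a-2, one of the precursors of miR-124, a microRNA abundant in neurons, or the empty RI vector. Each group had 3 arrays, labelled as biological replicates of this 1 cell line. The labels do not say whether the replicates were separate cultures, so p-values measure the spread between these samples. The time between transfection and RNA extraction and the share of cells that took up the plasmid are not given in the sources used here. RNA came from whole cultures, so a change in each cell and a change in a fraction of the cells cannot be told apart.

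Neurons release transmitter when synaptic vesicles fuse with the membrane, driven by SNARE proteins such as SNAP-25 and syntaxin 1A and triggered by the calcium sensor synaptotagmin 1. Outside neurons many of these genes are kept silent by REST, which binds a DNA element called RE1 and recruits corepressors, among them small phosphatases such as Ctdsp1. miR-124 is known to lower Ptbp1, which represses neuronal splicing, and Ctdsp1. The comparison asks whether the RNA of neuronal genes changes when miR-124 is supplied to a cell line that already expresses neuronal genes.

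The arrays differed in technical measures that followed the groups in part. Empty vector replicate 1 and plasmid replicates 1 and 2 are called narrow arrays here, since the interquartile range of their log2 values was 3.06 to 3.10. It was 3.26 to 3.35 in the other 3, the wide arrays. The mean log2 signal of the probe sets for poly-A control RNAs was 5.96 and 5.97 for replicate 1 of each group, and 5.57 to 5.71 for replicates 2 and 3. The division by this signal is called the poly-A batch here. It came from the values, since the labels state no block. The same replicate 1 arrays had 3′ minus 5′ differences of 1.34 and 1.55 (log2) for the transferrin receptor probes, against 0.95 to 1.09 elsewhere. Values within the narrow arrays rest on 1 empty vector array, and those in wide arrays on 1 plasmid array. Of the 10 markers listed for catecholaminergic neuroblasts, 8 were measured and all had means of at least 5, the level under which a gene was counted as dim. Gata3 (5.4) and Ddc (5.5) lay close to that level. Means under 5 were seen for 4 of 5 astrocyte, 3 of 4 oligodendrocyte, 5 of 6 fibroblast and 4 of 5 macrophage markers. The remaining ones were Slc1a3 (5.6), Mag (5.6), Dcn (5.1) and Csf1r (6.2). The mean over each of these 4 lists lay between 4.08 and 4.99 in the empty vector arrays and between 4.07 and 5.03 in the plasmid arrays.

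With the miR-124a-2 plasmid, 29 of the 36 neuronal genes had a higher mean than with the empty vector, against 54.2% of all genes, and the differences were small. The median log2 fold change was 0.17, against 0.02 for all genes, and single values ran from -0.15 for Bsn to 0.56 for Eno2, or 1.47-fold. None of the 36 passed an adjusted p of 0.05 in limma over all genes, where 0.907% of genes passed (38 higher and 127 lower). At an unadjusted p under 0.05, 10 of the 36 were higher and 0 were lower, against 5.13% higher among all genes. For 11 of the 36 all plasmid values lay above all empty vector values (8.5% of all genes), and for 0 of the 36 all lay below (7.76% of all genes). Without the replicate 1 arrays of both groups none passed either, with 13 higher at an unadjusted p under 0.05 (4.28% of all genes).

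With the array set (narrow or wide) as a block, 8 of the 36 passed, all higher: Syt1, Syt4, Unc13a, Gria2, L1cam, Celsr3, Ank2 and Mapk8ip2. In that fit 1.42% of all genes passed as higher and 1.58% as lower. With the poly-A batch (replicate 1 arrays against the rest) as a block, 4 passed, all higher: Syt1, Snap25, Eno2 and Mapk8ip2, where 1.59% of all genes passed (0.55% higher and 1.04% lower). Syt1 and Mapk8ip2 passed in both. The median of the 36 was 0.17 within the narrow arrays and 0.19 within the wide ones, against -0.01 for all genes within the narrow arrays. Means under 5 were found for 7 of the 36, namely Atp2b2, Bdnf, Calb1, Camk2b, Chrm4, Nlgn1 and Sv2b. Their log2 fold changes lay between -0.10 and 0.05, and none of them had groups that did not overlap. The other 29 had a median of 0.28, and 25 of them were above 0 (54.2% of all genes, dim ones included). Of all 18194 genes 7059 were dim, a larger share than among the 36. Among the 11135 genes that were not dim, 11.2% were higher without overlap, against 11 of the 29. At an unadjusted p under 0.05 in limma, 7.37% of them were higher, against 10 of the 29.

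**Figure D1:**
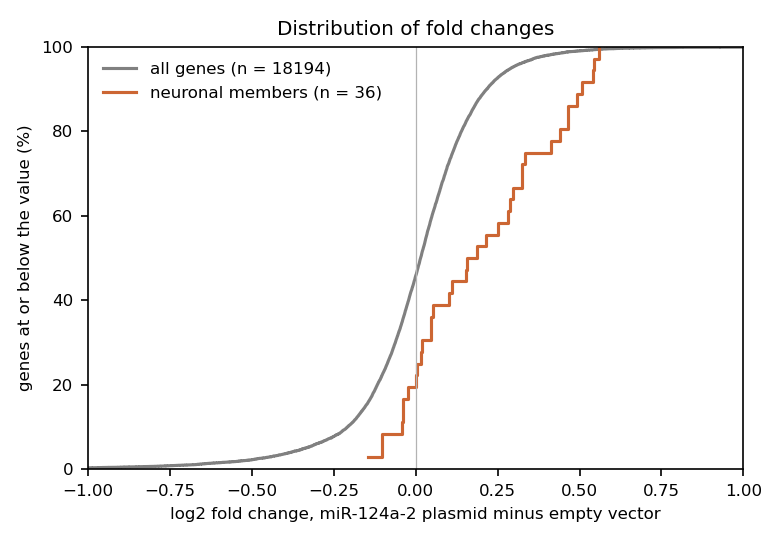
Cumulative share of genes (y axis, %) at or below each log2 fold change, miR-124a-2 plasmid minus empty vector (x axis, shown from -1 to 1), for all 18194 genes and for the 36 neuronal genes. At its median the curve of the neuronal genes lies to the right of that of all genes (0.17 against 0.02). It spans -0.15 to 0.56, while the curve of all genes runs beyond both ends of the x axis.

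**Figure D2:**
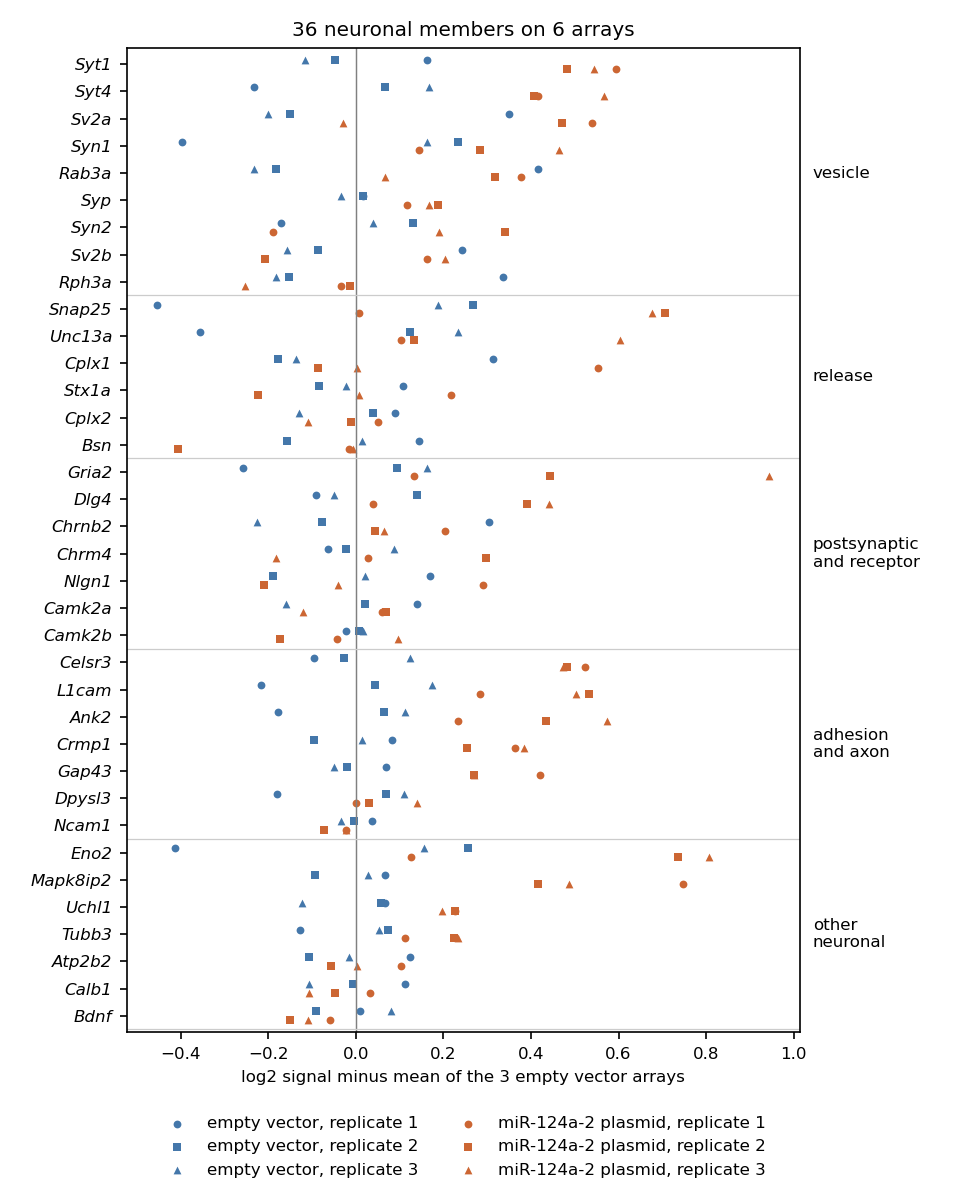
Log2 signal of each of the 36 genes on each of the 6 arrays, as the difference from the mean of its 3 empty vector arrays (x axis), with genes in rows by role. Blue points are empty vector arrays, orange points plasmid arrays, and shapes mark the replicate number. For 11 genes, 5 of them adhesion and axon genes, all orange points lie to the right of all blue points.

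Among 9 genes of synaptic vesicles, 8 had higher means with the plasmid (54.2% of all genes), and none passed without a block (median 0.25). For 3 the groups did not overlap, all higher (8.5% of all genes). Syt1 encodes synaptotagmin 1, the calcium sensor of fast transmitter release. It had 10.07, 9.86 and 9.79 in empty vector replicates 1 to 3 and 10.50, 10.39 and 10.45 with the plasmid, in log2 signal. All plasmid arrays were above all empty vector arrays. The log2 fold change was 0.54 ± 0.11 (SE), 1.45-fold, with an adjusted p of 0.0636 in limma. It passed in 7 of 17 alternative settings (adjusted p from 0.0161 to 0.847), among them the array set block (0.0359) and the poly-A block (0.0362). Its other probe sets had 0.54, 0.42 and -0.08, the last of them dim, and the mean of its probe sets gave 0.36.

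Syt4, another synaptotagmin and a reported REST target, read 8.87, 9.17 and 9.27 with the empty vector and 9.52, 9.51 and 9.67 with the plasmid. The groups did not overlap, and empty vector replicate 1 was the lowest array. The difference of 0.47 ± 0.13 (SE) in log2 signal did not pass (adjusted p = 0.159). In the array set fit it was 0.55 and it passed in limma (adjusted p = 0.0222, range over all alternatives 0.0222 to 0.444). Syp encodes synaptophysin, an abundant vesicle membrane protein. Its signal was 8.09, 8.09 and 8.04 with the empty vector and 8.19, 8.26 and 8.24 with the plasmid, so the groups lay close together without overlap. That difference of 0.16 ± 0.09 (SE) did not pass (adjusted p = 0.621). The other probe set of Syp, which was dim, had -0.03 (0.06 for the mean of both).

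The synapsins tether vesicles to the cytoskeleton. Syn1 had a log2 fold change of 0.30 (95% interval -0.10 to 0.69), at 0.61 in narrow and 0.26 in wide arrays, and 0.10 without empty vector replicate 1. Syn2 had 0.11 (-0.24 to 0.46), but its 6 probe sets ranged from -0.06 to 0.36. Sv2a and Sv2b, vesicle glycoproteins, had 0.33 (-0.11 to 0.76) and 0.05 (-0.29 to 0.39). Rab3a, the GTPase of synaptic vesicles, had 0.25 (-0.16 to 0.66) in its brightest probe set and 0.45 in its other one. Rph3a, the Rab3 effector rabphilin, was the only vesicle gene below 0, at -0.10 (-0.45 to 0.25). For Sv2a and Rab3a the signal differed as much between arrays of the empty vector group as between the groups. Empty vector replicate 1 had 7.31 for Sv2a against 6.81 and 6.76 in the other empty vector arrays, and 9.14 for Rab3a against 8.54 and 8.49. With the array set block the log2 fold changes were 0.15 for Sv2a and 0.10 for Rab3a. Without empty vector replicate 1 they were 0.50 and 0.46. Without plasmid replicate 3 Sv2a had 0.50, and without empty vector replicate 2 or 3 Rab3a had 0.16 and 0.13.

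Among 6 genes of the release machinery, 4 had higher means (54.2% of all genes), none passed without a block, and all overlapped between groups (median 0.08). Snap25, the SNARE protein of the plasma membrane, had 9.60, 10.32 and 10.24 with the empty vector and 10.06, 10.76 and 10.73 with the plasmid. In both groups replicate 1 was the lowest array, and plasmid replicate 1 lay below empty vector replicates 2 and 3. The log2 fold change was 0.46 ± 0.24 (SE, adjusted p = 0.553), 1.38-fold. It was 0.46 within the replicate 1 arrays and 0.47 within the other 4, and it passed with the poly-A block (adjusted p = 0.0434, range over all alternatives 0.0411 to 0.807). Without empty vector replicate 1 it was 0.24. The mean of its probe sets gave 0.21, but its other probe set was dim (-0.04, at a mean of 3.41 with the empty vector).

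**Figure D3:**
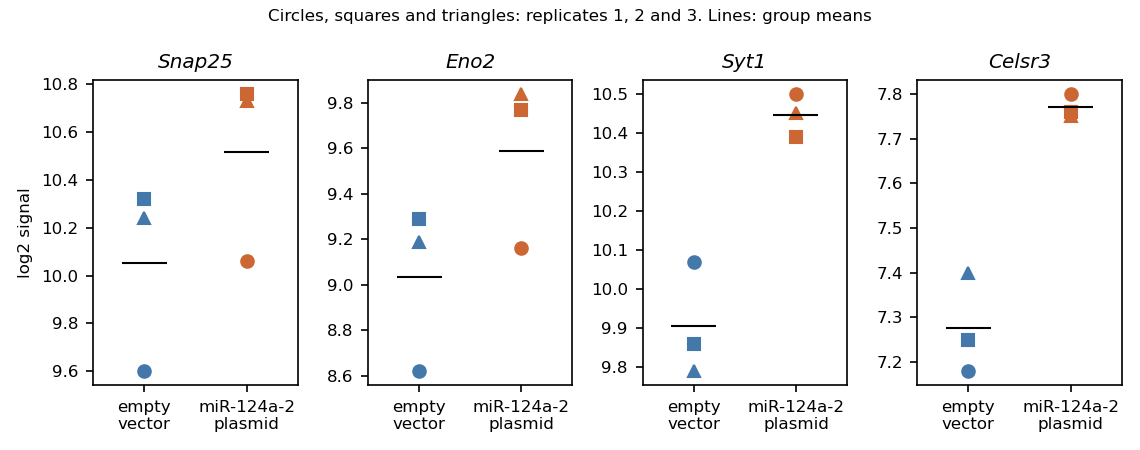
Log2 signal (y axis, a separate range in each panel) of Snap25, Eno2, Syt1 and Celsr3 on the 6 arrays. Circles, squares and triangles are replicates 1, 2 and 3, and lines are group means. For Snap25 and Eno2 the replicate 1 array is the lowest of each group and the groups overlap, whereas for Syt1 and Celsr3 the groups do not overlap.

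Unc13a encodes Munc13-1, which primes vesicles for fusion. It read 6.44, 6.92 and 7.03 with the empty vector and 6.90, 6.93 and 7.40 with the plasmid, so only empty vector replicate 1 lay well below and only plasmid replicate 3 well above the rest. Its mean difference of 0.28 ± 0.19 (SE) did not pass (adjusted p = 0.693), with 0.48 in narrow and 0.43 in wide arrays. In the array set fit it was 0.45 and it passed (adjusted p = 0.0338, range over all alternatives 0.0338 to 0.915). Leaving out empty vector replicate 1 gave 0.10, and leaving out plasmid replicate 3 gave 0.12. The SNARE gene Stx1a (syntaxin 1A) had 0.00 (95% interval -0.29 to 0.29). The complexins, which clamp SNARE complexes, had 0.15 for Cplx1 (-0.29 to 0.59) and -0.02 for Cplx2 (-0.26 to 0.21). Bsn, the active zone scaffold bassoon, had -0.15 (-0.46 to 0.17), with 1 of its 3 probe sets, a dim one, above 0.

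Among 7 postsynaptic and receptor genes, 6 had higher means (54.2% of all genes), and none passed without a block (median 0.05). None had groups that did not overlap. Gria2, the AMPA receptor subunit that limits calcium entry, read 5.44, 5.79 and 5.86 with the empty vector and 5.83, 6.14 and 6.64 with the plasmid. Plasmid replicate 1 lay below empty vector replicate 3, and plasmid replicate 3 was the highest array. The log2 fold change was 0.51 ± 0.20 (SE, adjusted p = 0.393), 1.42-fold. It was 0.54 in narrow and 0.82 in wide arrays, and 0.68 with the array set block (adjusted p = 0.0234, range over all alternatives 0.0234 to 0.820). Without plasmid replicate 3 it was 0.29. All 3 of its probe sets were above 0, the others at 0.41 (a dim one) and 0.04, and their mean gave 0.32.

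Dlg4, the gene of the postsynaptic scaffold PSD-95, had 7.35, 7.58 and 7.39 with the empty vector and 7.48, 7.83 and 7.88 with the plasmid. Plasmid replicate 1 lay among the empty vector arrays. Its log2 fold change of 0.29 ± 0.13 (SE) did not pass (adjusted p = 0.475) and ran from -0.01 to 0.59 in its 95% interval. Its probe set of largest spread had 0.18. The nicotinic receptor subunit gene Chrnb2 had 0.10 (-0.22 to 0.43) and the muscarinic receptor gene Chrm4 had 0.05 (-0.25 to 0.35). The kinase subunit genes Camk2a and Camk2b had 0.00 (-0.25 to 0.26) and -0.04 (-0.27 to 0.19). Nlgn1, the postsynaptic adhesion protein neuroligin 1, had 0.02 (-0.33 to 0.36) at a mean of 3.38 with the empty vector. Camk2b, Chrm4 and Nlgn1 were all dim.

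The adhesion and axon genes were the role in which most members were apart. For 5 of 7 the groups did not overlap, all higher (8.5% of all genes). The median log2 fold change was 0.33 (0.28 in narrow and 0.39 in wide arrays). None of the 7 passed without a block, and 3 passed as higher with the array set block (1.42% of all genes). With the poly-A block 0 of the 7 passed (0.55% of all genes passed as higher). Celsr3, an atypical cadherin that guides axon tracts, had 7.18, 7.25 and 7.40 with the empty vector and 7.80, 7.76 and 7.75 with the plasmid. All plasmid arrays were above all empty vector arrays. The log2 fold change was 0.49 ± 0.10 (SE, adjusted p = 0.0647), 1.41-fold, and the gene passed in 4 of 17 alternatives (adjusted p from 0.0303 to 0.350), among them the array set block.

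L1cam encodes the axonal adhesion molecule L1. Its signal was 10.06, 10.32 and 10.45 with the empty vector and 10.56, 10.81 and 10.78 with the plasmid. Replicate 1 was the lowest array of each group, and the groups did not overlap. The log2 fold change was 0.44 ± 0.13 (SE, adjusted p = 0.201), and 0.51 with the array set block (adjusted p = 0.0479, range over all alternatives 0.0479 to 0.841). Ank2, the membrane skeleton adaptor ankyrin 2, had 6.71, 6.95 and 7.0 with the empty vector and 7.12, 7.32 and 7.46 with the plasmid. Here too the plasmid arrays were all above the empty vector arrays. That log2 fold change of 0.41 ± 0.13 (SE, adjusted p = 0.225) was 0.50 with the array set block (adjusted p = 0.0332, range over all alternatives 0.0332 to 0.795). Its 6 probe sets ran from -0.12 to 0.41, and their mean gave 0.10 (adjusted p = 0.795). The only other probe set with a mean of at least 5 had 0.28, and the rest were dim.

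Gap43, a growth cone protein of extending axons, read 10.21, 10.12 and 10.09 with the empty vector and 10.56, 10.41 and 10.41 with the plasmid. Crmp1, a collapsin response mediator of semaphorin signalling, read 10.49, 10.31 and 10.42 and then 10.77, 10.66 and 10.79. In both genes the groups did not overlap, with log2 fold changes of 0.32 ± 0.10 and 0.33 ± 0.10 (SE). Neither passed in limma in any of the 17 alternatives (adjusted p without a block 0.212 and 0.204). The related Dpysl3 had 0.05 (95% interval -0.20 to 0.31). Ncam1, the neural cell adhesion molecule, had -0.04 (-0.24 to 0.16) in its brightest probe set, while 5 of all 7 had negative values.

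Of the other 7 neuronal genes, 5 had higher means (54.2% of all genes), with a median of 0.19. For 3 the groups did not overlap, all higher (8.5% of all genes). Eno2, the neuronal enolase of glycolysis, had 8.62, 9.29 and 9.19 with the empty vector and 9.16, 9.77 and 9.84 with the plasmid. Replicate 1 was the lowest array of each group, as for Snap25, and plasmid replicate 1 lay below the other empty vector arrays. Its log2 fold change of 0.56 ± 0.22 (SE, adjusted p = 0.386) was 0.54 within the replicate 1 arrays and 0.57 within the others. With the poly-A block its adjusted p was 0.0297 (range over all alternatives 0.0296 to 0.659), and without empty vector replicate 1 its log2 fold change was 0.35. Mapk8ip2, the JNK scaffold JIP2 and a reported REST target, had 8.03, 7.87 and 7.99 with the empty vector and 8.71, 8.38 and 8.45 with the plasmid. All plasmid arrays were above all empty vector arrays, and plasmid replicate 1 was the highest. The log2 fold change was 0.54 ± 0.12 (SE, adjusted p = 0.0789), 1.46-fold, with 0.51 and 0.52 within the narrow and wide arrays. It passed in 5 of 17 alternatives (adjusted p from 0.0347 to 0.772), with the array set block only just (its adjusted p rounds to 0.05), and all 5 of its probe sets were above 0 (0.12 to 0.54). Their mean gave 0.34, and the probe set of largest spread 0.33. Uchl1, a deubiquitinating enzyme abundant in neurons, read 10.80, 10.79 and 10.61 with the empty vector and 10.96, 10.96 and 10.93 with the plasmid. Tubb3, the neuronal beta-tubulin, read 10.75, 10.95 and 10.93 and then 10.99, 11.10 and 11.11. Both were without overlap, at 0.21 ± 0.10 and 0.19 ± 0.10 (SE), and did not pass (adjusted p = 0.475 and 0.583). Tubb3 had 0.12 without empty vector replicate 1. The growth factor gene Bdnf, the calcium-binding protein gene Calb1 and the calcium pump gene Atp2b2 were dim and had -0.10 (-0.32 to 0.11), -0.04 (-0.27 to 0.19) and 0.02 (-0.22 to 0.26).

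**Figure D4:**
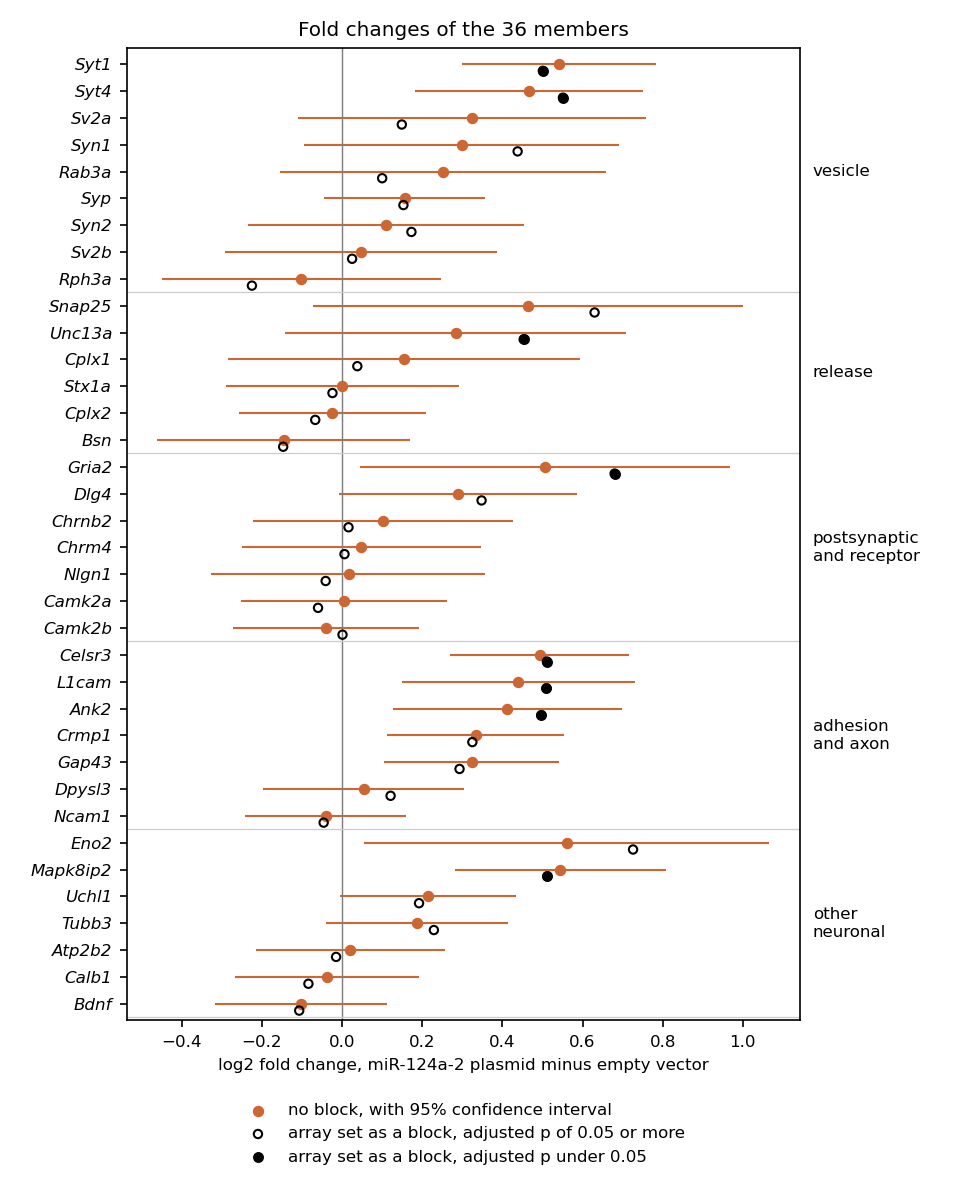
Log2 fold change (x axis) of each of the 36 genes, in rows by role. Orange points with bars are values without a block and their 95% confidence intervals, and black points below them are values with the array set as a block, filled where the adjusted p was under 0.05. The 8 filled points, all above 0, are in every role, 3 of them among the adhesion and axon genes.

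Probe sets of 1 gene often differed in direction, where dim probe sets were counted too. In Snap25, Syt1, Syp and Ank2 every probe set below 0 was dim. In other genes, such as Syn2 and Chrnb2, a probe set below 0 was not dim. Of 93 probe sets, 67 were above 0, and 0 passed when all 45101 probe sets were tested together. For 11 genes there was 1 probe set. Of the other 25, 9 had all probe sets above 0, 1 had all below and 15 were mixed. With the mean of the probe sets of a gene, 29 of the 36 genes were above 0 and 8 were without overlap, all higher (7.54% of all genes). With the probe set of largest spread, 29 were above 0 and 7 were without overlap, all higher (6.95% of all genes).

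**Figure D5:**
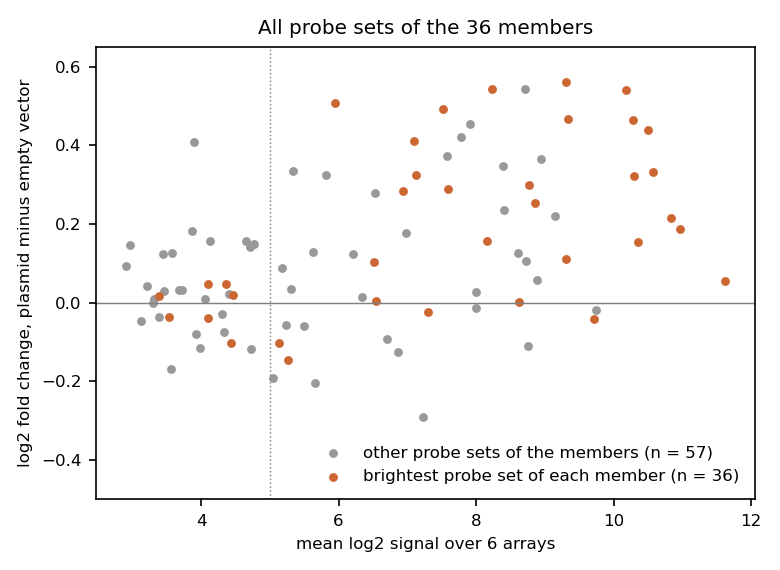
Log2 fold change (y axis) against mean log2 signal over 6 arrays (x axis) for the 93 probe sets of the 36 genes, with the brightest probe set of each gene in orange and the others in grey. The dotted line marks a mean of 5, and the orange points to its left lie between -0.10 and 0.05.

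Of the 36 genes, 15 are on a list of reported REST targets. Of these 15, 13 were above 0 (54.2% of all genes), with a median of 0.28. For 6 the groups did not overlap, all higher (8.5% of all genes). Of the other 21, 16 were above 0, with a median of 0.11, and 5 had groups that did not overlap. None of either list passed without a block. In the array set fit 6 and 2 passed, all higher (1.42% of all genes). With the poly-A block 2 and 2 passed, all higher (0.55% of all genes). Within the narrow arrays the medians were 0.48 and -0.07, and in wide arrays 0.26 and 0.15. The difference between the lists was not tested. The reported targets were also higher in the wide than in the narrow empty vector arrays (median 0.14, against -0.13 for the others), and the part of this in the medians was not tested.

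RefSeq promoter windows of GRCm38.p6 (250 bases before to 50 after a start site) were matched for 29 of the 36 genes, and for 12 of the 15 reported REST targets. The windows were searched on both strands for the RE1 motif of 17 letters and for its arms, TTCAGCACC on the left and GGACAGCGC on the right, whose letters overlap with the full motif. The full motif was found for 1 of the 29 genes, Gria2, and for 0.0777% of all 27025 genes with a window. With at most 1 letter different, a definition chosen after the first search, it was found for 5 of the 29 (Atp2b2, Celsr3, Gria2, Rph3a and Syn1) and for 1.15% of all genes. The left arm was found for 4 (Celsr3, Nlgn1, Syn1 and Unc13a) and for 0.433% of all genes, and the right arm for 3 (Atp2b2, Gria2 and Unc13a) and for 0.477%. The stretches below are those of the 4 reported REST targets that were not dim and had a full, near-full or 2-armed match. Capitals mark the matched letters.
Gria2: tcgatTTTAGCACCGCGGACAGcgctttgg
Celsr3: ctccgTTCAGCACCGTGGGCAGcacttctg
Syn1: tcggaTTCAGCACCGCGGTCAGagccttcg
Unc13a: gcTTCAGCACCgggggcgcGGACAGCGCct

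The Gria2 stretch is at chr3:80802984-80803013, upstream of a gene on the minus strand, and is printed from the strand opposite to the gene. The Celsr3 stretch is at chr9:108825913-108825942 (gene on the plus strand) and the Syn1 stretch at chrX:20921126-20921155 (gene on the minus strand), both printed from the gene's strand, and each differs from the motif by 1 letter. In Unc13a both arms were present with 8 bases between them, at chr8:71671725-71671754, just past the start site of a gene on the minus strand and printed from the opposite strand. That gap is wider than in the motif, and Unc13a had no match to the full motif, even with 1 letter different. Beside these sequences stand the log2 fold changes given above, 0.51 for Gria2, 0.49 for Celsr3, 0.30 for Syn1 and 0.28 for Unc13a. Nlgn1, Atp2b2 and Rph3a, which also had a match to an arm or to the motif with 1 letter different, had 0.02, 0.02 and -0.10. Syt1, L1cam, Ank2 and Mapk8ip2, which are among the 8 genes called in the array set fit, had no match in these windows. A match describes letters in a window and is not a measured binding site.

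Genes of the same pathways outside the 36 were counted from 3 further lists. Of all genes, 54.2% were above 0 and 8.5% were higher without overlap. The shares of all genes that passed as higher were 1.42% with the array set block and 0.55% with the poly-A block. Of 33 measured genes of the presynaptic side, none passed without a block, 27 were above 0 and 12 were without overlap, all higher (median 0.16). The smallest adjusted p-values in limma were those of Napb (0.56, adjusted p = 0.0651) and Sv2c (0.45, adjusted p = 0.0871). Next were the vesicle genes Syngr3 (0.38, adjusted p = 0.107) and Syngr1 (0.55, adjusted p = 0.114). Napb encodes an adaptor that helps to take SNARE complexes apart. Napb passed with the array set block (adjusted p = 0.0198) and the poly-A block (0.0364), and in 7 of 17 alternatives (0.0198 to 0.375). Sv2c passed with the array set block (adjusted p = 0.0354, range over all alternatives 0.0354 to 0.411). Of 26 measured genes of the postsynaptic side, Nlgn2 rose and the other 25 did not pass, and 16 were above 0 (median 0.02). Nlgn2 encodes neuroligin 2, an adhesion protein of inhibitory synapses. It read 7.28, 7.35 and 7.50 with the empty vector and 7.96, 8.14 and 8.12 with the plasmid, without overlap. Its increase of 0.70 ± 0.11 (SE) on the log2 scale passed (adjusted p = 0.0245, from 0.0107 to 0.213 over the alternatives), while its other probe set had -0.06. The call was lost with the mean of the probe sets (0.32, adjusted p = 0.206), with the probe set of largest spread (0.70, adjusted p = 0.0695) and with replicates 2 and 3 alone (0.71, adjusted p = 0.213). It was also lost without empty vector replicate 1, 2 or 3 (adjusted p = 0.0773, 0.172 and 0.0969) and without plasmid replicate 1 or 2 (adjusted p = 0.0688 and 0.0926). Camk2g (0.41), Homer1 (0.41) and Gria3 (-0.30, a dim gene) had the next smallest p-values of that list and did not pass without a block. With the array set block 3 of the 26 passed, namely Nlgn2, Camk2g (adjusted p = 0.0291, range over all alternatives 0.0291 to 0.621) and Homer1 (0.0381, range 0.0381 to 0.639), and with the poly-A block Nlgn2 passed. Of 26 other axon and adhesion genes, none passed without a block, 21 were above 0 and 5 were without overlap, all higher (median 0.12). Cntn2 (0.37), Tubb2a (0.43), Ncam2 (0.25) and Basp1 (0.24) had the smallest p-values. The other probe set of Tubb2a had -0.23, and Ncam2 was dim, with its lowest probe set at -0.06. Tubb2a passed with the array set block (adjusted p = 0.0436) and the poly-A block (0.0475), and in 3 of 17 alternatives (0.0436 to 0.932). Tubb2b, named since it passed there, had an adjusted p of 0.0292 with the array set block (range over all alternatives 0.0292 to 0.781).

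The 8 measured markers of catecholaminergic neuroblasts define the lineage of CAD cells. None of them passed, and 7 were above 0 (median 0.22), against 54.2% of all genes. Th, the gene of the enzyme that makes L-DOPA, had 6.26, 6.44 and 6.25 with the empty vector and 6.49, 7.02 and 6.81 with the plasmid. Those groups did not overlap, and the log2 fold change of 0.46 ± 0.14 (SE) did not pass (adjusted p = 0.236).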

How the data were processed

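RNA of 6 samples was measured on arrays after Trizol extraction, with biotin-labelled cRNA made from 6 ug of total RNA, per the labels' protocols. For 45101 probe sets the authors deposited log2 values, and the submitters' processing notes name RMA. Its version, probe definition file and filters are not given in the sources used here. No further normalization was applied. Arrays give no read depth, and their number limits precision.

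Gene names are those of a 2016 annotation of the array: 34958 probe sets had 1 gene, 932 several and 9211 were not listed. Where a gene had several, the one of highest mean signal stood for it. The comparison used limma 3.58.1 in R 4.3.3 (lmFit, then eBayes) without a block. Its two-sided p-values were adjusted over 18194 genes by Benjamini-Hochberg, at a threshold of 0.05. The fit was tested on simulated data, in 10 draws with 200 changed genes each and no array set or batch. It found 28% of changes of 0.5 in log2 signal and 81.4% of changes of 1, and 3.71% of its calls were false. Blocks for the array set and the poly-A batch came from dividing the arrays at the largest gap in interquartile range or in poly-A controls.

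The 36 genes and all lists were chosen with earlier results of these data known. All 36 were named. Values per array were given for those that passed with any block, that did not overlap between groups, or that had the 2 largest changes of a role. From each further list the 4 genes with the smallest adjusted p were named, and of the markers Th was chosen after its values were seen. Alternatives were quantile normalization, median centring, removal of dim genes, a trended prior (also robust), other rules for probe sets, each array left out in turn, and the replicate number as a block. Replicates 2 and 3 alone were added after the data were seen.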

Additional observations from a re-analysis of the deposited data

How the results depend on the processing

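With 3 arrays a group, none of the 36 genes passed in limma without a block, and this held when each array was left out in turn, with median centring, with either other rule for probe sets and with replicates 2 and 3 alone (0 genes of 18194 passed there, 1824 at an unadjusted p under 0.05). Over all genes 165 passed. The count was 546 with the array set as a block, 290 with the poly-A block, 99 with median centring, 311 with quantile normalization, 253 with dim genes left out, 270 with an intensity trend, 266 with a robust trend, 51 with each gene's most variable probe set, and 0 to 343 when 1 array was left out. It was 0 without empty vector replicate 2 or 3 (1285 and 1313 at an unadjusted p under 0.05), 13, 46 and 343 without plasmid replicate 1, 2 and 3, and 61 without empty vector replicate 1. Of the 36 genes, 8 passed with the array set block, 4 with the poly-A block, and 2 each with quantile normalization, dim genes left out, the intensity trend and the robust trend. At an unadjusted p under 0.05 there were 10 (10.9% of all genes), against 16 with the array set block (15 higher and Rph3a lower; 15.9% of all genes) and 6 with the most variable probe set (8.82% of all genes). The median was 0.28 with dim genes left out. Genes without overlap numbered 7 with the most variable probe set. With fewer arrays groups overlap less often among all genes too: replicates 2 and 3 alone gave 22 (21 higher and 1 lower, against 20.9% higher and 20.6% lower of all genes). Leaving out 1 array gave 11 to 18, the highest without plasmid replicate 1 (17 higher and 1 lower, against 12.0% and 13.9% of all genes). The cause of these differences was not tested, apart from fewer genes tested or fewer arrays where the setting removes them.

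With the replicate number as a block, 457 genes and 5 of the 36 passed (Celsr3, Eno2, Mapk8ip2, Snap25 and Syt1), and 16 of the 36 were at an unadjusted p under 0.05, all higher (8.27% of all genes higher). Correlations of deviations between same-numbered arrays were 0.539, 0.000 and 0.549, so 1 of the 3 numbers showed no shared deviation, and the numbers were not taken as pairs in the design. The replicate 1 arrays did share technical measures, and the poly-A block sets these 2 arrays apart from the other 4.

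Direction turned in at least 1 setting for 15 of the 36 genes, none with a log2 fold change over 0.156 in size, and in none for 21. With the array set block Stx1a had -0.024, Camk2a -0.06, Camk2b 0.001, Nlgn1 -0.041 and Atp2b2 -0.015. Median centring gave -0.002 for Stx1a, and quantile normalization 0.006 for Cplx2. The mean of probe sets gave 0.02 for Rph3a, -0.007 for Stx1a, -0.016 for Nlgn1 and 0.058 for Calb1. The most variable probe set gave -0.03 for Syp, 0.14 for Rph3a, -0.19 for Camk2a and 0.092 for Calb1. Replicates 2 and 3 alone gave 0.034 for Rph3a, -0.053 for Stx1a, -0.04 for Nlgn1 and -0.008 for Dpysl3. With 1 array left out the ranges were -0.036 to 0.084 for Atp2b2, -0.093 to 0.019 for Calb1, -0.077 to 0.073 for Camk2a, -0.109 to 0.028 for Camk2b, -0.077 to 0.162 for Chrm4, -0.013 to 0.255 for Chrnb2, -0.045 to 0.309 for Cplx1, -0.090 to 0.021 for Cplx2, -0.036 to 0.109 for Dpysl3, -0.124 to 0.126 for Nlgn1, -0.192 to 0.066 for Rph3a, -0.107 to 0.112 for Stx1a, -0.030 to 0.177 for Sv2b and -0.005 to 0.262 for Syn2.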

Other observations

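The replicate 1 arrays differed from the other 2 arrays of their group in the same direction with and without the plasmid for 34 of the 36 neuronal genes, against 67.7% of all genes. The largest such gaps were in Snap25, which differed in replicate 1 by -0.68 with the empty vector and -0.69 with the plasmid, and in Eno2, with -0.62 and -0.65. Both gaps were over 0.5 in size in both groups for these 2 genes alone of the 36, and for 1.41% of all genes. Cplx1 went the other way, 0.47 and 0.60 higher in replicate 1. Probe sets of 1 gene could differ here: a second probe set of Dlg4 read 6.22 and 6.14 for replicate 1 but 7.22 to 7.58 on the other 4 arrays, while the brightest read 7.35 and 7.48 against 7.39 to 7.88. Likewise Syt1 had 7.17 and 7.19 in replicate 1 and 7.71 to 8.39 elsewhere in a dimmer probe set, while its brightest probe set was slightly higher in replicate 1.

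Syn2 and Rab3a each had a probe set that was not the brightest but was without overlap between groups. In Syn2 it read 8.76, 8.76 and 8.77 with the empty vector and 9.03, 9.20 and 9.15 with the plasmid. In Rab3a it read 7.78, 7.64 and 7.62 with the empty vector and 8.09, 8.25 and 8.06 with the plasmid. Neither passed in limma over all 45101 probe sets (adjusted p = 0.213 and 0.151). These probe sets were chosen after their values were seen.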
